A study of Mus musculus with 3 samples.

Results

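A set of 9 genes that keep cells epithelial was followed across sorted progeny of mouse embryonic stem cells in which Snail had been switched on. They are the splicing factor genes Esrp1 and Esrp2, the transcription factor genes Grhl2, Grhl3, Ovol1 and Ovol2, and the membrane trafficking genes Ap1m2, Rab25 and Mal2. They were chosen by name for their roles, though with earlier results of these data known. Every probe set naming 1 of them alone was read, 14 probe sets in all. These 9 genes stand among 18193 genes with a probe set of their own, and 8 of the 9 were measured, among 13974 measured genes in all. A gene counted as measured when the probe set with its highest mean reached 25.6 on at least 1 array; this floor is the 40th percentile of the whole table of intensities.

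The cells were of the A2.snail line, which expresses Snail when doxycycline is added, and had differentiated as embryoid bodies for 3 days in medium with serum and DKK1, a secreted inhibitor of Wnt signalling. Sorting was by Flk1, a VEGF receptor that marks mesoderm with endothelial and blood potential. There were 3 arrays. One held Flk1+ cells and another Flk1- cells from Snail-induced embryoid bodies, which had received doxycycline at 250 ng/mL from day 2, and the last held Flk1- cells from embryoid bodies that received none (untreated). All came from 1 line, and neither untreated Flk1+ cells nor doxycycline-treated cells without the Snail gene were analysed here, so that Snail and doxycycline cannot be told apart. With 1 array per group no difference had a replicate check and none was tested; precision is limited by having 3 arrays.

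Epithelial cells hold their state through mutually reinforcing regulators. Esrp proteins bind pre-mRNA and keep the epithelial exons of receptor, adhesion and cytoskeletal transcripts. Grainyhead-like factors activate genes of cell junctions and of the epithelial barrier, and Ovol zinc finger proteins repress mesenchymal genes, Zeb1 among them. In turn, Snail and Zeb proteins repress epithelial genes through E-box sequences. Ap1m2 encodes the epithelial medium chain of the AP-1 clathrin adaptor, which sorts cargo to the basolateral membrane. Rab25 encodes an epithelial Rab11-family GTPase of recycling endosomes, and Mal2 a membrane protein of transcytosis to the apical surface.

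Promoter sequences are shown for the genes whose windows hold the E-box sequence CAGGTG. RefSeq promoter windows (GRCm38.p6, 250 bases before to 50 after the start site) matched 4 of the 9 genes, namely Ap1m2, Grhl3, Ovol2 and Rab25. Each line below gives the first 270 bases of the window, which end 20 bases after the start site, 5′ to 3′ in the direction of the gene on the minus strand. Capitals mark CAGGTG or its reverse complement CACCTG. The positions are chr9:21312314-21312583 for Ap1m2, chr3:88548260-88548529 for Rab25 and chr4:135573613-135573882 for Grhl3.
Ap1m2: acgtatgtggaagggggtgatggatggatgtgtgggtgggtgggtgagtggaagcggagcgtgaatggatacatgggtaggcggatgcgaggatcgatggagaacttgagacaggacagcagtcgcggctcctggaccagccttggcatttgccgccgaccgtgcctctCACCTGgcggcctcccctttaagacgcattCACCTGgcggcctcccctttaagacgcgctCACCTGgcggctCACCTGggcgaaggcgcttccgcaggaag
Rab25: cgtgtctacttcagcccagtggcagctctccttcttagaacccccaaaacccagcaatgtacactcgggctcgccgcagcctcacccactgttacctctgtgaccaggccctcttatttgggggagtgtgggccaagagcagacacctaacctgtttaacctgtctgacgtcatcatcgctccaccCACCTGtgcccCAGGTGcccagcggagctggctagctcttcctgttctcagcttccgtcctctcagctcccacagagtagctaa
Grhl3: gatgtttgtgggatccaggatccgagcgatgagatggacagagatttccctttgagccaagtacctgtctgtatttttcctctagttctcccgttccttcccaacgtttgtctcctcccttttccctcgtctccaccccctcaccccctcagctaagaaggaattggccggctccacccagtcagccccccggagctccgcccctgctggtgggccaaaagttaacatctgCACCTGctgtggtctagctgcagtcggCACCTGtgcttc

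The Ap1m2 window held 4 matches to CAGGTG, all as the reverse complement, with first bases at -81, -51, -21 and -9 from the start site. The first 3 lie 30 bases apart and the last 12 bases further on, and the 30-base stretches that begin at -81 and -51 are identical at 28 of 30 bases. Positions count from the start site of the window. RefSeq places the 5′ end of the Ap1m2 gene at chr9:21312349, upstream of that site, so the match at -9 lies inside the annotated gene. The Rab25 window held 2 matches, at -64 and -53, and the Grhl3 window 2, at -19 and 9. Among 32851 promoter windows of the same length, 20.2% held at least 1 match on either strand, 2.88% at least 2 and 0.0548% at least 4. Of 2 further motifs searched on both strands, the grainyhead-type sequence AACCNGTT occurred once in the Rab25 window, at -102, and in 2.09% of all windows; the Ovo-type sequence CCGTTA occurred in none of the 4 windows and in 2.76% of all windows. No match overlapped another motif. The Ovol2 window held none of the 3 motifs, which says only that these letters are not in this window. That window lies wholly inside the annotated gene, whose 5′ end is at chr2:144332080. A match is a description of the letters and not evidence of binding.

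The genes did not behave as 1 block. Esrp1 and Ap1m2 were lower in Snail-induced than in untreated Flk1- cells and lower again in Flk1+ cells. Rab25 was lower in Snail-induced than in untreated Flk1- cells and within 1.09-fold between the Snail-induced arrays, and Mal2 was under the floor on both Snail-induced arrays. Grhl2 showed more of its difference between the Snail-induced arrays, Ovol2 was under 2-fold lower on both Snail-induced arrays, and the Esrp2 reading depended on the probe set. In bulk RNA such as this, fewer cells of a type and less RNA per cell cannot be told apart. Differences below are of log2(intensity + 9.53), where the offset is the 20th percentile of the whole table; for dim genes this scale makes differences smaller. A fold is 2 to the power of that difference; where the dimmer value was under the floor, the brighter value over the floor is given as "at least".

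**Figure D1:**
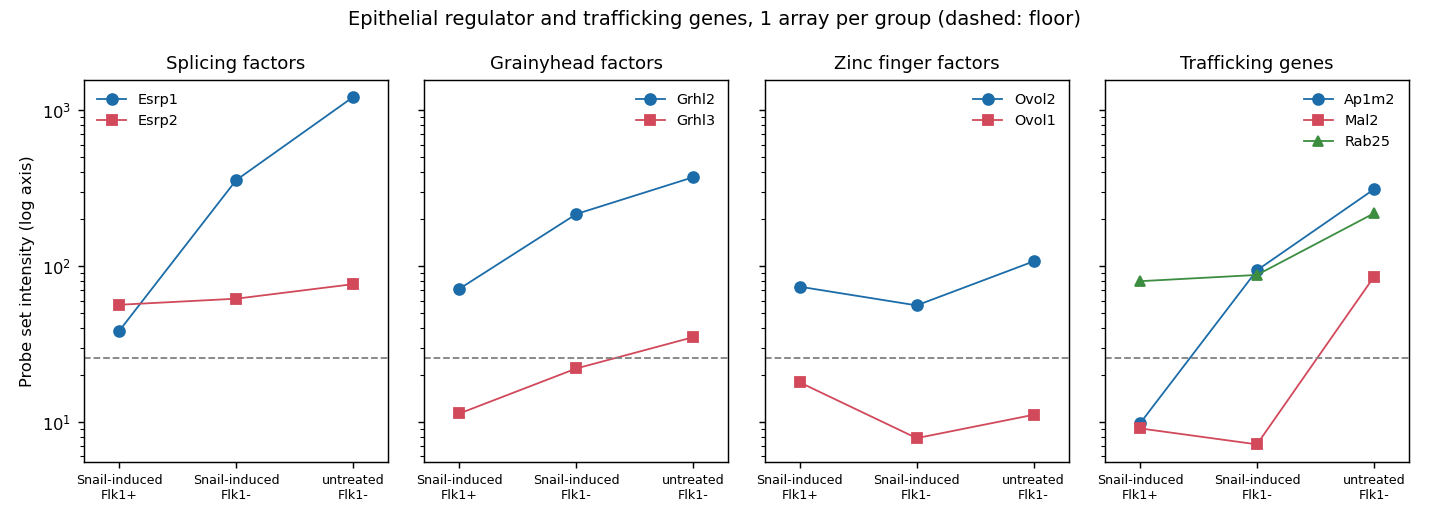
Intensity of the probe set that stands for each gene (y axis, log scale, intensity units) on the Snail-induced Flk1+, Snail-induced Flk1- and untreated Flk1- arrays, 1 array per group; lines only join the values of 1 gene and the dashed line is the floor of 25.6. Esrp1 and Ap1m2 step down from right to left, Mal2 is under the floor on both Snail-induced arrays, and Ovol1 is under it on all 3.

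Among the splicing factors, Esrp1 had an intensity of 38.3 in Snail-induced Flk1+ cells, 356 in Snail-induced Flk1- cells and 1215 in untreated Flk1- cells. Its 1 probe set stood at the 47.4th percentile of the Flk1+ array, the 79.3rd of the Snail-induced Flk1- array and the 92.1st of the untreated array. Esrp1 was thus among the brighter probe sets of untreated cells and in the lower part of the Flk1+ array. It was 3.35-fold lower in Snail-induced than in untreated Flk1- cells, 7.63-fold lower in Flk1+ than in Flk1- Snail-induced cells, and 25.6-fold lower in Snail-induced Flk1+ than in untreated Flk1- cells. Counted from the lowest difference among genes with both values at or above the floor, it came 13th of 12342 genes, 13th of 12245 and 3rd of 12310 in these comparisons. On the log2 scale 37.3% of its whole difference lay between the Flk1- arrays.

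Esrp2, the paralog of Esrp1 with overlapping target exons, gave different answers by probe set. The probe set with the higher mean, 1419977_s_at, had 56.4 in Snail-induced Flk1+, 61.7 in Snail-induced Flk1- and 76.5 in untreated Flk1- cells, which is 1.21-fold lower in Snail-induced than in untreated Flk1- cells. The other, 1433683_at, had 20.5, 27.9 and 71.6 in the same order and was 2.17-fold lower in Snail-induced than in untreated Flk1- cells. Both had their highest value in untreated cells, and they differed in how much lower the induced arrays were. The suffix of 1419977_s_at marks a probe set that can read several transcripts.

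The arrays read transcript level and not exon use, so splicing itself was not measured. A list of 10 genes with exons known to be switched by Esrp proteins was measured in full. Between the Flk1- arrays 0 of the 10 were 2-fold apart, where 5.06% of measured genes were, with differences from -0.16 to 0.41 and a median of -0.01, against 0.04 for all measured genes. Fgfr2, the receptor with epithelial and mesenchymal forms, had 220 in Snail-induced Flk1+, 180 in Snail-induced Flk1- and 202 in untreated Flk1- cells. Ctnnd1, which encodes p120 catenin, had 763, 463 and 453 in the same order. Cd44, the hyaluronan receptor, had 188, 96.9 and 70.8 and was the 1 gene of the 10 past 2-fold anywhere, 2.46-fold higher in Snail-induced Flk1+ than in untreated Flk1- cells.

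Most other splicing regulators were under 2-fold apart. Of 12 measured, 1 was at least 2-fold higher and 0 lower in Snail-induced than in untreated Flk1- cells. Among all measured genes 3.00% were higher and 2.06% lower. In Flk1+ against Flk1- Snail-induced cells 3 were higher and 0 lower, where 4.94% of measured genes went each way. Mbnl2, a muscleblind protein gene, had 825 in Snail-induced Flk1+, 302 in Snail-induced Flk1- and 125 in untreated Flk1- cells. This was the reverse of the order of Esrp1. Rbm47, which encodes another epithelial RNA-binding protein, had 26.5, 49.4 and 74.0, and was 2.32-fold lower in Snail-induced Flk1+ than in untreated Flk1- cells. Rbfox2, which encodes a splicing regulator of mesenchymal exons, had 1128, 1042 and 1074, values that differed by at most 1.08-fold.

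Of the grainyhead factors, Grhl2 had an intensity of 71.5 in Snail-induced Flk1+ cells, 216 in Snail-induced Flk1- cells and 372 in untreated Flk1- cells by its brightest probe set, 1427046_at. It was 1.69-fold lower in Snail-induced than in untreated Flk1- cells, under the 2-fold rule, and 2.78-fold lower in Flk1+ than in Flk1- Snail-induced cells. In Snail-induced Flk1+ against untreated Flk1- cells it was 4.71-fold lower, with 34.0% of the log2 difference between the Flk1- arrays. The other 3 Grhl2 probe sets were too dim to be set against it. Values for 1431877_a_at and 1452643_at were under the floor on all arrays, at 23.6 or less. The remaining one, 1431878_at, reached the floor in Flk1+ cells alone, with 27.5 in Snail-induced Flk1+, 3.14 in Snail-induced Flk1- and 25.1 in untreated Flk1- cells. Averaging the 4 probe sets gave Grhl2 a log2 difference of 0.32 in place of -1.48 between the Snail-induced arrays, so the Grhl2 result rests on 1 probe set.

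**Figure D2:**
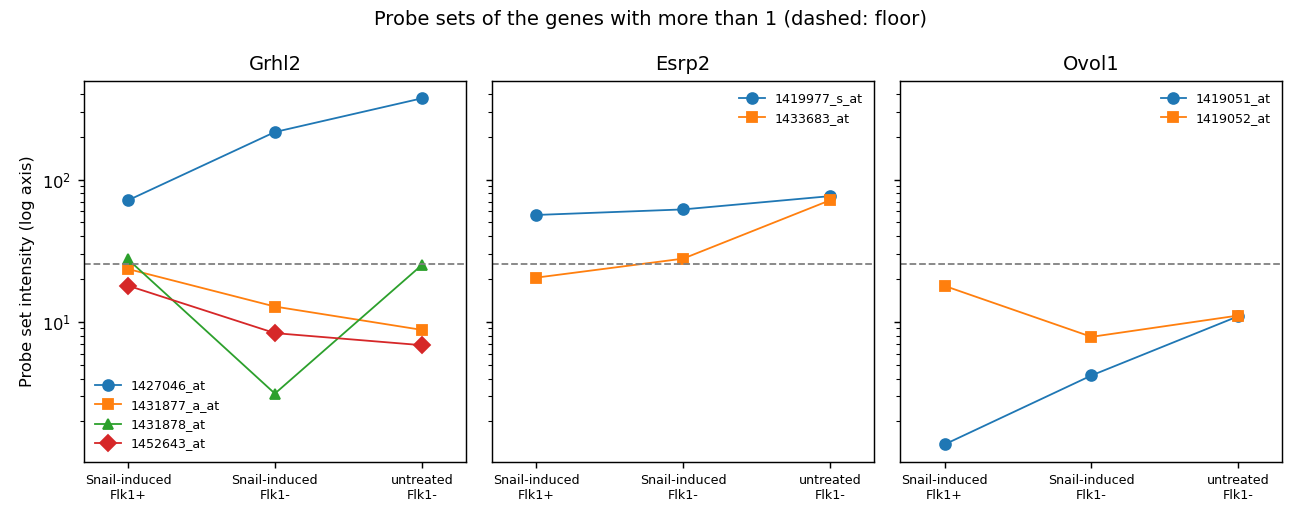
Intensity (y axis, log scale, intensity units) of every probe set of Grhl2, Esrp2 and Ovol1 on the Snail-induced Flk1+, Snail-induced Flk1- and untreated Flk1- arrays, with the floor of 25.6 dashed. The Grhl2 probe set 1427046_at is the only one of the 4 above the floor on all arrays, the 2 Esrp2 probe sets part on the induced arrays, and both Ovol1 probe sets lie under the floor.

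Grhl3, a grainyhead factor of the surface ectoderm and neural tube closure, was dim: 11.3 in Snail-induced Flk1+, 22.0 in Snail-induced Flk1- and 35.0 in untreated Flk1- cells. Only the untreated value reached the floor, so that it was lower by at least 1.37-fold on both induced arrays. Its value of -1.09 on the log2 scale between Snail-induced Flk1+ and untreated Flk1- cells passed the 2-fold rule only through a value under the floor; with such values set to the floor it was -0.34. Grhl1, the third member of that subfamily, had 20.1 in Snail-induced Flk1+, 41.8 in Snail-induced Flk1- and 126 in untreated Flk1- cells. It was 2.65-fold lower in Snail-induced than in untreated Flk1- cells. The related CP2 factor genes differed from it: Tfcp2 had 445, 407 and 288 in the same order and Ubp1 had 1303, 954 and 1011. Tfcp2l1, a CP2-family factor of naive pluripotent cells, had 10.5 in Snail-induced Flk1+, 117 in Snail-induced Flk1- and 87.8 in untreated Flk1- cells, so that it was not lower in Snail-induced than in untreated Flk1- cells.

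Ovol2 had an intensity of 73.7 in Snail-induced Flk1+ cells, 55.9 in Snail-induced Flk1- cells and 107 in untreated Flk1- cells. It was 1.78-fold lower in Snail-induced than in untreated Flk1- cells and 1.27-fold higher in Flk1+ than in Flk1- Snail-induced cells, neither past 2-fold. The Flk1+ value lay between the other 2. Ovol1 was not measured: the values of its probe sets 1419051_at and 1419052_at lay between 1.38 and 17.9 on all 3 arrays. Values under the floor have no order, and no fold is given.

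Among the trafficking genes, Ap1m2 had an intensity of 9.77 in Snail-induced Flk1+ cells, 93.9 in Snail-induced Flk1- cells and 311 in untreated Flk1- cells. It was 3.09-fold lower in Snail-induced than in untreated Flk1- cells, 18th from the lowest of 12342 ranked genes. In Flk1+ cells it was under the floor, at least 3.68-fold lower than in Snail-induced Flk1- and at least 12.2-fold lower than in untreated Flk1- cells. Most other genes of the adaptor were less than 2-fold apart between the Flk1- arrays. Among 10 other AP-1 subunit and accessory genes, 1 was lower by 2-fold or more between the Flk1- arrays and 0 were higher. Of all measured genes 2.06% were lower and 3.00% higher. The median of the 10 was -0.03. The lower one was Ap1s3, a small chain gene, with 240 in Snail-induced Flk1+, 340 in Snail-induced Flk1- and 743 in untreated Flk1- cells. Like Ap1m2, it was lowest in Flk1+ and highest in untreated cells, an order that 22.0% of measured genes had. Synrg, Aftph and Ap1b1 had this order too, with differences under 2-fold. Ap1m1, the medium chain gene of most cells and the paralog of Ap1m2, had 700, 773 and 391 in the same order, 1.95-fold higher in Snail-induced than in untreated Flk1- cells. The differences of these paralogs thus had opposite signs.

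Rab25 had an intensity of 80.0 in Snail-induced Flk1+ cells, 87.7 in Snail-induced Flk1- cells and 218 in untreated Flk1- cells. It was 2.34-fold lower in Snail-induced than in untreated Flk1- cells and 1.09-fold lower in Flk1+ than in Flk1- Snail-induced cells. Of its whole log2 difference, 91.1% lay between the Flk1- arrays. Its relatives Rab11a and Rab11b, the Rab11 GTPases of most cells, were not lower: Rab11a had 3157 in Snail-induced Flk1+, 2049 in Snail-induced Flk1- and 1840 in untreated Flk1- cells, and Rab11b had 1988, 1928 and 1648. Of 20 other genes of Rab11 recycling and apical transport, 0 were 2-fold apart between the Flk1- arrays, where 5.06% of measured genes were. Between the Snail-induced arrays 5 were, where 9.88% of measured genes were. The lowest of the 20 between the Flk1- arrays was Rab11fip1, which encodes a Rab11 effector that also binds Rab25, at -0.84.

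Mal2 had an intensity of 9.08 in Snail-induced Flk1+ cells, 7.17 in Snail-induced Flk1- cells and 85.2 in untreated Flk1- cells. It was at least 3.33-fold lower on each Snail-induced array than on the untreated one, and both induced values were under the floor. Of 14 measured genes that share the MARVEL domain or the MAL and CMTM families, 3 were lower by 2-fold or more between the Flk1- arrays. None was higher, where 2.06% of measured genes were lower and 3.00% higher. The 3 lower genes were Ocln and Marveld2, tight junction proteins, at 4.28-fold and 3.86-fold, and Cmtm8 at 2.02-fold. Mal itself had 32.3 in Snail-induced Flk1+, 22.9 in Snail-induced Flk1- and 27.3 in untreated Flk1- cells, all near the floor. Cmtm3 went the other way, 7.29-fold higher in Snail-induced Flk1+ than in untreated Flk1- cells.

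**Figure D3:**
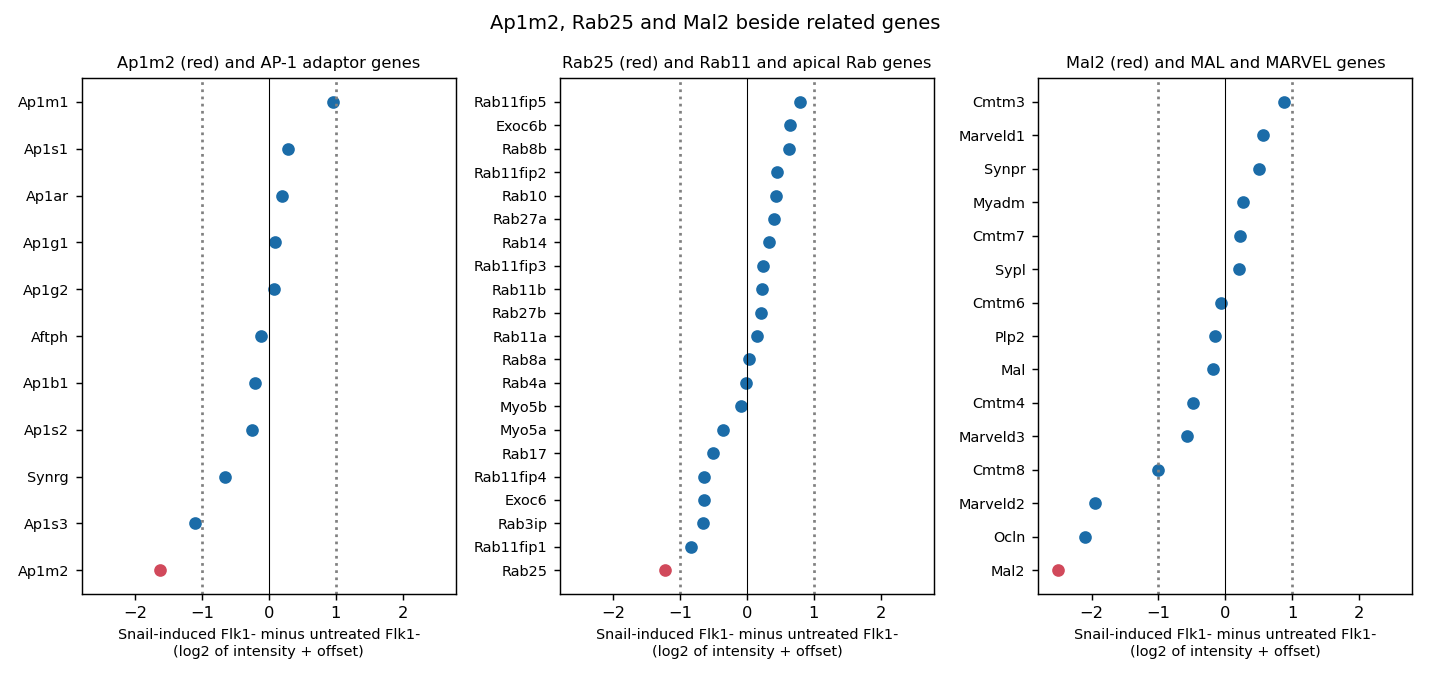
Log2 difference of intensity plus offset between Snail-induced and untreated Flk1- cells (x axis) for Ap1m2, Rab25 and Mal2 in red and the measured related genes in blue, ordered by that difference, with dotted lines at 2-fold. Ap1m2 lies at -1.63 and Rab25 at -1.23, below the other genes of their panels. Mal2 is drawn at -2.50 from an induced value under the floor; its bound of at least 3.33-fold is smaller than the folds of Ocln and Marveld2, so its place among them is not known.

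Across the 3 comparisons, 4 of the 8 measured genes (Esrp1, Ap1m2, Rab25 and Mal2) were at least 2-fold lower and 0 higher in Snail-induced than in untreated Flk1- cells, where 2.06% of measured genes were lower and 3.00% higher (288 and 419 genes, or 404 and 317 with each array centred on the median of measured genes). In Flk1+ against Flk1- Snail-induced cells, 3 of 8 (Esrp1, Ap1m2 and Grhl2) were lower and 0 higher, where 4.94% of measured genes were lower and 4.94% higher. In Snail-induced Flk1+ against untreated Flk1- cells, which on the log2 scale adds up the other 2 comparisons and is no independent evidence, 6 of 8 were lower and 0 higher, against 6.47% and 8.24% of measured genes (14.7% in either direction). Grhl2, Grhl3, Esrp1, Ap1m2, Rab25 and Mal2 made up these 6. The median log2 differences of the 8 genes were -1.03, -0.36 and -1.79, beside 0.04, 0.00 and 0.01 for all measured genes. Mal2 and Grhl3 were measured only through the untreated array, so for them a lower value on the induced arrays was built into the filter, and these counts and medians are a description. By their values alone, 6 of the 8 were lowest in Snail-induced Flk1+ and highest in untreated Flk1- cells, an order that 22.0% of measured genes had. Both induced values of Grhl3 were under the floor and have no order. With dim values set to the floor, a check chosen after seeing the data, 5 of the 8 and 20.7% of measured genes had the order.

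**Figure D4:**
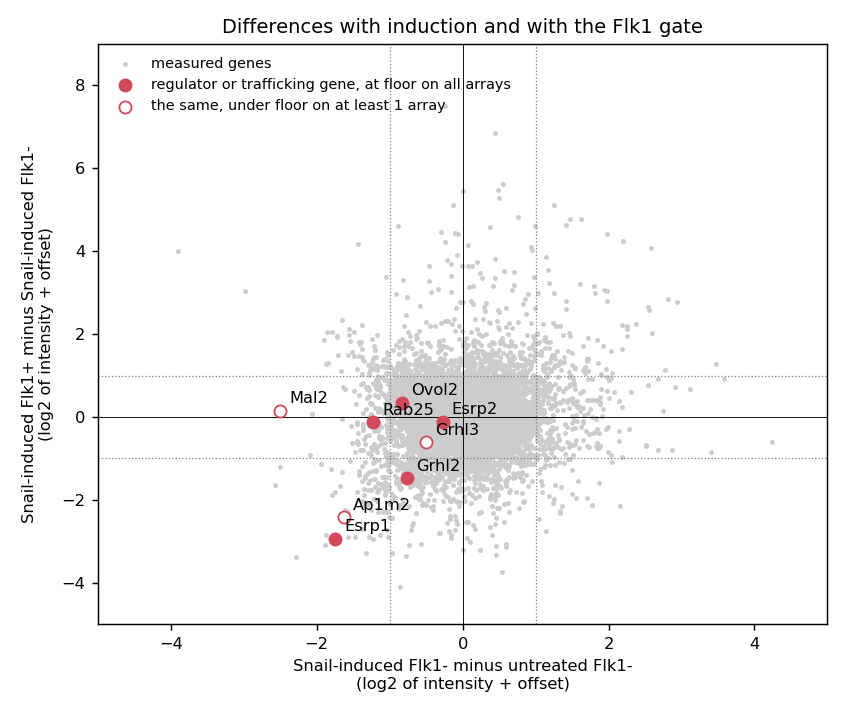
Log2 difference of intensity plus offset between the Flk1- arrays (x axis, Snail-induced minus untreated) and between the Snail-induced arrays (y axis, Flk1+ minus Flk1-) for 13974 measured genes in grey and the 8 measured epithelial regulator and trafficking genes in red, open where a value was under the floor on at least 1 array. Dotted lines mark 2-fold, and both axes share the Snail-induced Flk1- array. Esrp1 (-1.74 and -2.93) and Ap1m2 lie in the lower left, and Rab25 lies left of 2-fold near 0 on the y axis. The y values of Mal2 and Grhl3 come from values under the floor on both Snail-induced arrays. That of Ap1m2 rests on a Flk1+ value under the floor.

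Many genes of epithelial junctions were lower as well. Of 26 measured junction and keratin genes, 17 were lower by 2-fold or more and 0 higher between the Flk1- arrays (median -1.15). Among all measured genes 2.06% were lower and 3.00% higher. Between the Snail-induced arrays 14 were lower and 2 higher (median -1.22), where 4.94% of measured genes went each way. One of the 14, the protease gene Prss8, passed only through a value under the floor. Of 15 genes described as targets or partners of grainyhead or Ovol factors, all measured, 6 were lower and 0 higher between the Flk1- arrays (median -0.91). Those counts stand beside the same 2.06% and 3.00%. Between the Snail-induced arrays 5 were lower and 1 higher (median -0.35), beside the same 4.94% each way. The higher one, Zfp750, was counted only through a value under the floor. Cdh1, which encodes E-cadherin and is a known Grhl2 target, had 624 in Snail-induced Flk1+, 3086 in Snail-induced Flk1- and 6338 in untreated Flk1- cells. Spint1, a protease inhibitor gene activated by grainyhead factors, had 91.4, 235 and 547 in the same order. Cldn4, a claudin gene bound by Grhl2, had 8.15, 77.0 and 175. Cdh1, Spint1 and Cldn4 thus kept the order of Esrp1, whereas Lmo4, a partner of Grhl3, had 357, 300 and 209. Cldn3, also more than 2-fold lower between the Flk1- arrays, had 168, 131 and 327 and broke the order. Vangl2, Nectin4 and Elf3 were higher in Snail-induced than in untreated Flk1- cells, each by less than 2-fold. The list overlaps the junction list in several genes, so the counts are not separate observations.

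Several genes of repressors of the epithelial state were higher. Of 14 measured, 8 were higher by 2-fold or more and 0 lower in Snail-induced than in untreated Flk1- cells (median 1.53). Among all measured genes 3.00% were higher and 2.06% lower. In Flk1+ against Flk1- Snail-induced cells 5 were higher and 0 lower, where 4.94% of measured genes went each way. Zeb1, a known target of Ovol2 repression, had 667 in Snail-induced Flk1+, 471 in Snail-induced Flk1- and 121 in untreated Flk1- cells by its brightest probe set, and Zeb2 had 557, 268 and 64.9 by its own. The other Zeb2 probe sets did not all do the same. One had 161 in Snail-induced Flk1+, 113 in Snail-induced Flk1- and 167 in untreated Flk1- cells, 1.44-fold lower between the Flk1- arrays, and another had 157, 73.6 and 41.0, 1.65-fold higher. A further one was at least 1.54-fold higher and the last was under the floor throughout, so the size of the Zeb2 difference depends on the probe set. Snai1 itself had 19.8 in Snail-induced Flk1+, 13.1 in Snail-induced Flk1- and 29.1 in untreated Flk1- cells on its 1 probe set, near or under the floor; the sources used here do not say whether that probe set reads the induced gene, so it does not check the induction.

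Markers of other cell types moved with the Flk1 gate. Kdr, the gene of the sorted protein, had 404 in Snail-induced Flk1+, 9.73 in Snail-induced Flk1- and 10.5 in untreated Flk1- cells. Of 15 endothelial and hemangioblast markers, 14 were at least 2-fold higher in Flk1+ than in Flk1- Snail-induced cells, where 4.94% of measured genes were. Kdr is 1 of the 14, and its difference was set by the gate. Tie1 and Pecam1, at least 1.67-fold and 1.75-fold higher, were counted only through values under the floor. The summed intensity of the 15 was 12437 in Snail-induced Flk1+, 1290 in Snail-induced Flk1- and 763 in untreated Flk1- cells. Of 12 pluripotent and epiblast markers, 7 were at least 2-fold lower in Flk1+ than in Flk1- Snail-induced cells, where 4.94% of measured genes were. Their sums were 18815, 37474 and 35860.5 in the same order. Between the Flk1- arrays 1 of the 12 was lower, Fgf5, and 0 were higher, where 2.06% of measured genes were lower and 3.00% higher. Their part in the differences of Esrp1, Grhl2 and Ap1m2 was not tested.

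Another epithelium that embryoid bodies can hold is visceral endoderm. Its markers Afp, Ttr and Apoa1 and the endoderm genes Foxa2 and Cer1 were under the floor on all 3 arrays, while Amn had 125 in Snail-induced Flk1+, 208 in Snail-induced Flk1- and 125 in untreated Flk1- cells. Other endoderm markers were brighter in induced cells or differed with the gate. Dab2, an endocytic adaptor gene, had 560 in Snail-induced Flk1+, 404 in Snail-induced Flk1- and 168 in untreated Flk1- cells, and Rbp4, a retinol carrier gene, had 138.5, 143 and 56.8. Cubn, an endocytic receptor gene, had 44.0, 257 and 219.6 and was 4.99-fold lower in Flk1+ than in Flk1- Snail-induced cells. Of 7 measured endoderm markers, 2 were higher by 2-fold or more and 0 lower between the Flk1- arrays, where 3.00% and 2.06% of measured genes were. Between the Snail-induced arrays 1 was higher and 1 lower, where 4.94% of measured genes went each way. In Snail-induced Flk1+ against untreated Flk1- cells 4 were higher and 1 lower, beside 8.24% and 6.47% of measured genes. Sox17 is 1 of the 4, and Apob, at least 1.55-fold higher, was counted only through a value under the floor. The part of these markers in the differences of the epithelial genes was not tested. On the Snail-induced Flk1+, Snail-induced Flk1- and untreated Flk1- arrays, 7, 7 and 6 of 12 endoderm markers with a probe set reached the floor. Their sums were 2473, 1218 and 766, and Sox17, also an endothelial gene, had 1466 in Flk1+ cells. Of all probe sets, 60.7%, 59.4% and 59.9% reached the floor on these arrays. Counts of this and the following lists therefore do not show that a cell type was present or absent. The surface ectoderm keratin genes Krt5, Krt14 and Krt15 were under the floor throughout, and 3, 2 and 3 of 7 surface ectoderm markers reached it, with sums of 292, 222 and 291. Krt7, another keratin gene of that list, reached the floor in untreated cells alone and was at least 1.74-fold lower on each Snail-induced array. Of the 4 measured surface ectoderm markers, 1 (Krt7) was counted as 2-fold lower between the Flk1- arrays and 0 as higher. That count rests on a Krt7 value under the floor, beside 2.06% and 3.00% of measured genes. Of 9 trophoblast markers, 7, 5 and 5 reached the floor, with sums of 617, 716 and 673, and Cdx2 and Elf5 were under it on all arrays. Between the Snail-induced arrays 1 of the 7 measured was lower (Tfap2c) and 2 higher (Gata3 and Tpbpa), where 4.94% of measured genes went each way. Gata3 was at least 7.70-fold higher in Flk1+ cells. Tpbpa, at least 1.08-fold higher, was counted only through a value under the floor. Of 9 feeder fibroblast markers, 5, 5 and 6 reached the floor, with sums of 1290, 1509 and 900.

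The genes most like the median profile of the 8 were found by distance over the 3 arrays, after centring each gene's log2 values on their mean. That profile differed by -0.94 between the Flk1- arrays and by -0.64 between the Snail-induced arrays. The 10 nearest of 13966 other measured genes were Clic3, Rimkla, Cyp3a13, Gabra5, Ckb, Vamp8, Dsp, Sec22a, Hapln4 and Zdhhc2, at distances of 0.16 to 0.18. Clic3 and Cyp3a13 were under the floor on both Snail-induced arrays, so their likeness rests on values with no order. Dsp, which encodes desmoplakin, had 156 in Snail-induced Flk1+, 254 in Snail-induced Flk1- and 461 in untreated Flk1- cells. Vamp8, a vesicle fusion gene, had 266, 399 and 762. The 3 nearest to Esrp1 alone were Mapk13, Erbb3 and Trh, and Erbb3, a receptor tyrosine kinase gene, had 13.8, 164 and 507. The 3 nearest to Ap1m2 were Slc27a2, 2610528J11Rik and Uchl1, and those nearest to Grhl2 were Myb, Slco4a1 and Aass. Rab25 was nearest to Matk, Cd209c and Sla, which are all under the floor on both Snail-induced arrays, and Mal2 had no close neighbour, its nearest gene, Tmem125, lying at 0.33 and also under the floor on both Snail-induced arrays. Mapk13, Erbb3, Slco4a1 and 2610528J11Rik were under the floor in Flk1+ cells. Likeness over 3 arrays is a weak description, since each array is 1 point.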

How the data were processed

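The authors deposited a linear intensity for every probe set of each array. Per the labels' protocols, biotinylated cRNA was made from 2 ug total RNA by the standard Affymetrix procedure. The sources used here do not name the summary method, scaling or software. The columns had medians of 44.6, 42.4 and 42.7 (Snail-induced Flk1+, Snail-induced Flk1-, untreated Flk1-) and were used without further normalisation. Of 45037 probe sets, 34945 named 1 gene, 932 several and 9160 none by the platform annotation; Entrez IDs were used to bring symbols up to those of RefSeq (GRCm38.p6), and 204 had no match and kept theirs. The probe set with the highest mean over the arrays stood for a gene. No probe sequences or exon positions were used.

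The 9 genes and the lists were chosen with earlier results of these data known. All 9 are described with every probe set; of each of 12 gene lists and 6 marker lists up to 4 genes with the largest difference and up to 2 of the other direction may be named per comparison, and all genes of lists of 10 or fewer, with Kdr and Snai1 as checks. Other list genes (Tfcp2, Ubp1, Fgfr2, Lmo4, Rbfox2, Rab11a, Rab11b, Rab11fip1, Mal, Spint1, Zeb1, Zeb2, Amn, Cdh1, Sox17 and those said to be under the floor) were named for their roles, some after their values were seen. The size rule was 2-fold, with no test, because each group has 1 array. The counting was tried on simulated falls in genes well above the floor in untreated cells, which does not cover dim genes. Motif positions count the start site as 1 with no 0; 1647 of 1647 pairs of overlapping windows on opposite strands had matching letters when read in the direction of each gene. Scripts ran in Python 3.11.15 with pandas 2.3.3 and numpy 2.4.6.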

Additional observations from a re-analysis of the deposited data

How the results depend on the processing

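No paired analysis was possible because each group has 1 array, and no replicate could be left out. Results were recomputed with quantile normalisation, centring on the median of measured genes, the mean over probe sets, without probe sets marked _x_at or _s_at, no floor, a 60th-percentile floor, no offset, a 3-fold rule and, chosen after seeing the data, dim values raised to the floor. Of the epithelial regulator and trafficking genes, 3 to 5 were lower between the Flk1- arrays, 2 to 3 between the Snail-induced arrays and 4 to 7 in Snail-induced Flk1+ against untreated Flk1- cells, and 0 were higher. Over the same settings 33 to 537, 232 to 911 and 400 to 1118 of all measured genes were lower in these comparisons, with 10651 to 18193 genes measured. The median of the epithelial regulator and trafficking genes between the Flk1- arrays moved to -0.83 with no floor, where Ovol1 joins. Averaging probe sets turned Grhl2 to 0.32 between the Snail-induced arrays and left it at -0.13 in Snail-induced Flk1+ against untreated Flk1- cells. Without _s_at probe sets, Esrp2 was -1.12 and -1.43 in Snail-induced Flk1- and Flk1+ against untreated Flk1- cells. Grhl3 was -0.34 in Snail-induced Flk1+ against untreated Flk1- cells with dim values raised to the floor. Among all genes, 288 lower and 419 higher between the Flk1- arrays became 178 and 263 with averaged probe sets, 170 lower with the higher floor, 186 lower with dim values raised, 537 and 629 with no offset and 33 and 116 at 3-fold. At 3-fold the other comparisons had 232 lower and 251 higher, and 400 lower and 528 higher, in place of 690 and 691, and 904 and 1151. Centring made 44.0% of the calls between the Flk1- arrays higher in place of 59.3%. With averaged probe sets, 5 repressor genes in place of 8 were higher between the Flk1- arrays, beside 263 of 13140 measured genes.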

Other observations

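Genes of Rab11 recycling and apical transport differed in both directions between the Snail-induced arrays. Of 20 measured, 3 were at least 2-fold higher and 2 lower in Flk1+ than in Flk1- Snail-induced cells, where 4.94% of measured genes were higher and 4.94% lower. Exoc6, an exocyst subunit gene, had 760 in Snail-induced Flk1+, 185 in Snail-induced Flk1- and 294 in untreated Flk1- cells. The secretory GTPase paralogs parted: Rab27a had 87.4, 223 and 167 in the same order, and Rab27b had 95.5, 29.0 and 23.8. The Rab11 effector genes parted as well, with Rab11fip3 at 1193, 590 and 499.9 and Rab11fip4 at 55.4, 141 and 225.

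Other transcription factor genes found in epithelia did not follow Esrp1 between the Flk1- arrays. Of 12 measured, 1 (Foxa1) passed 2-fold as lower and 1 (Gata3) as higher in Snail-induced than in untreated Flk1- cells, where 2.06% and 3.00% of measured genes did. Both passed only through values under the floor; both Gata3 values were under it, and Foxa1 was at least 1.82-fold lower. In Flk1+ against Flk1- Snail-induced cells 3 were lower and 3 higher, where 4.94% of measured genes went each way, and Trp63, at least 1.52-fold higher, was counted through a value under the floor. Klf5 had 120 in Snail-induced Flk1+, 344 in Snail-induced Flk1- and 303 in untreated Flk1- cells. Tfap2c had 97.6, 315 and 280 in the same order, so that both were lower in Flk1+ cells and not in Snail-induced Flk1- cells. Id2, by contrast, had 2458, 831 and 670.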
